A study of Mus musculus with 4 samples.

Results

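The genes examined here encode 8 proteins that bind or remodel RNA in male germ cells, namely Dazl, Boll, Cpeb1, Ybx2, Ythdc2, Rbm46, Ddx25 and Elavl1. They were taken by name, without use of any measured value, though earlier results of these data were known. They make up 8 of the 22367 protein-coding genes on chromosomes 1 to 19, X and Y of the GENCODE vM1 annotation of mm9. All 8 names matched a gene. H3K36me3 was mapped by ChIP-seq in germ cells, labelled spermatocytes, of 2 mouse strains at 14 days post-partum (dpp). B6 is C57BL/6J. KI is B6.Cg-Prdm9<tm1.1Kpgn>/Kpgn, which is B6 except for the exon of Prdm9 that encodes the zinc fingers, taken from the Prdm9 allele of CAST/EiJ mice. The inputs are labelled 15 dpp. A sort of the cells into stages is not given in the sources used here. Each strain is represented by 1 pooled pair of peak lists made from 2 merged replicates, so the spread between replicates is unknown and no difference between strains could be tested.

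H3K36me3 is laid down behind elongating RNA polymerase II by the histone methyltransferase SETD2, so it fills the bodies of transcribed genes and is scarce at their promoters. In the meiotic prophase PRDM9 adds the same mark at the narrow sites it binds. Male germ cells make many mRNAs well before their proteins are needed and rely on RNA-binding proteins to store, translate or destroy them. DAZL and BOLL are members of the DAZ family of translational regulators. CPEB1 binds the cytoplasmic polyadenylation element. YBX2, also known as MSY2, packages mRNA for storage. YTHDC2 recognises N6-methyladenosine and is needed for the switch from mitosis to meiosis, and RBM46 is a germ cell protein with RNA recognition motifs that is also needed for meiosis. DDX25, or gonadotropin-regulated testicular RNA helicase, is a DEAD-box helicase of spermatocytes and spermatids. ELAVL1, also called HuR, binds AU-rich elements and is made in most tissues.

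The broad (unrefined) lists cover 445.9 Mb in B6 and 425.4 Mb in KI after merging, and the narrow (refined) lists hold 58502 and 72692 peaks. Starts of broad regions lie on a grid of 500 bp, which is the smallest shift of an edge that could be seen. The lists give positions only, and the depth of reads at a region is unknown. The labelled cell type was compared with marker genes. All 12 markers of spermatocytes, such as Sycp1, Sycp3 and Dmc1, were covered over at least 50% of their span in both strains, with a range of 82.4% to 100% in each. Of 6 markers of spermatogonia, 4 passed in B6 and 3 in KI. The count for spermatids was 2 of 6 in each strain, with Prm1, Tnp1 and Tnp2 at 0 in both. The genes that passed were Acrv1 (100%) and Spaca1 (67.15%) in B6, and Prm2 (100%) and Spaca1 (59.25%) in KI. The intervals that met Acrv1 and Prm2 began upstream of the 5′ ends, so their cover cannot be assigned to Acrv1 and Prm2 alone. The count was 1 of 6 in each strain for Leydig cells (Star, with Cyp17a1, Hsd3b1 and Insl3 at 0), and 1 of 6 for blood and immune cells (Cd68). The intervals that met these 2 genes began upstream of their 5′ ends. The starts were at -22445 bp (B6) and -1445 bp (KI) for Star, and -14845 bp (B6) and -15345 bp (KI) for Cd68. Cover of Star and Cd68 therefore cannot be assigned to those genes alone. The 7 markers of Sertoli cells that matched the annotation differed between the lists. Their summed cover was 62.4 kb of 362.1 kb in B6 and 19.7 kb in KI, and the share covered lay between 0 and 71.7% (B6) or 8.50% (KI), with Wt1 highest in both lists. At the limit of 50%, 1 of 7 passed in B6 and 0 in KI. Sox9, Amh and Clu were covered to 45.15%, 41.98% and 29.73% in B6, and to 0, 0.333% and 0 in KI. The interval that met Amh began upstream, at -6492 bp in both strains, so its cover cannot be assigned to Amh alone. Fshr was higher in KI, at 4.501% against 3.245% in B6, and Dhh was at 0 in both strains. The part of this difference in the values below was not tested.

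The larger part of each of the 8 genes lay inside H3K36me3 domains in both strains, with the lowest cover in Ybx2. Each gene had at least 50% of its span in merged broad intervals, beside 43.0% of all protein-coding genes in B6 and 41.2% in KI. At a limit of 90% in both strains, 7 of 8 passed, all but Ybx2, against 22.4% of all protein-coding genes. The median share covered over the 8 genes was 97.4% in each strain. Over the 8919 protein-coding genes covered by at least 50% in both strains the B6 median was 94.3% and the KI median 92.5%, and over all protein-coding genes 21.5% and 18.5%.

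**Figure D1:**
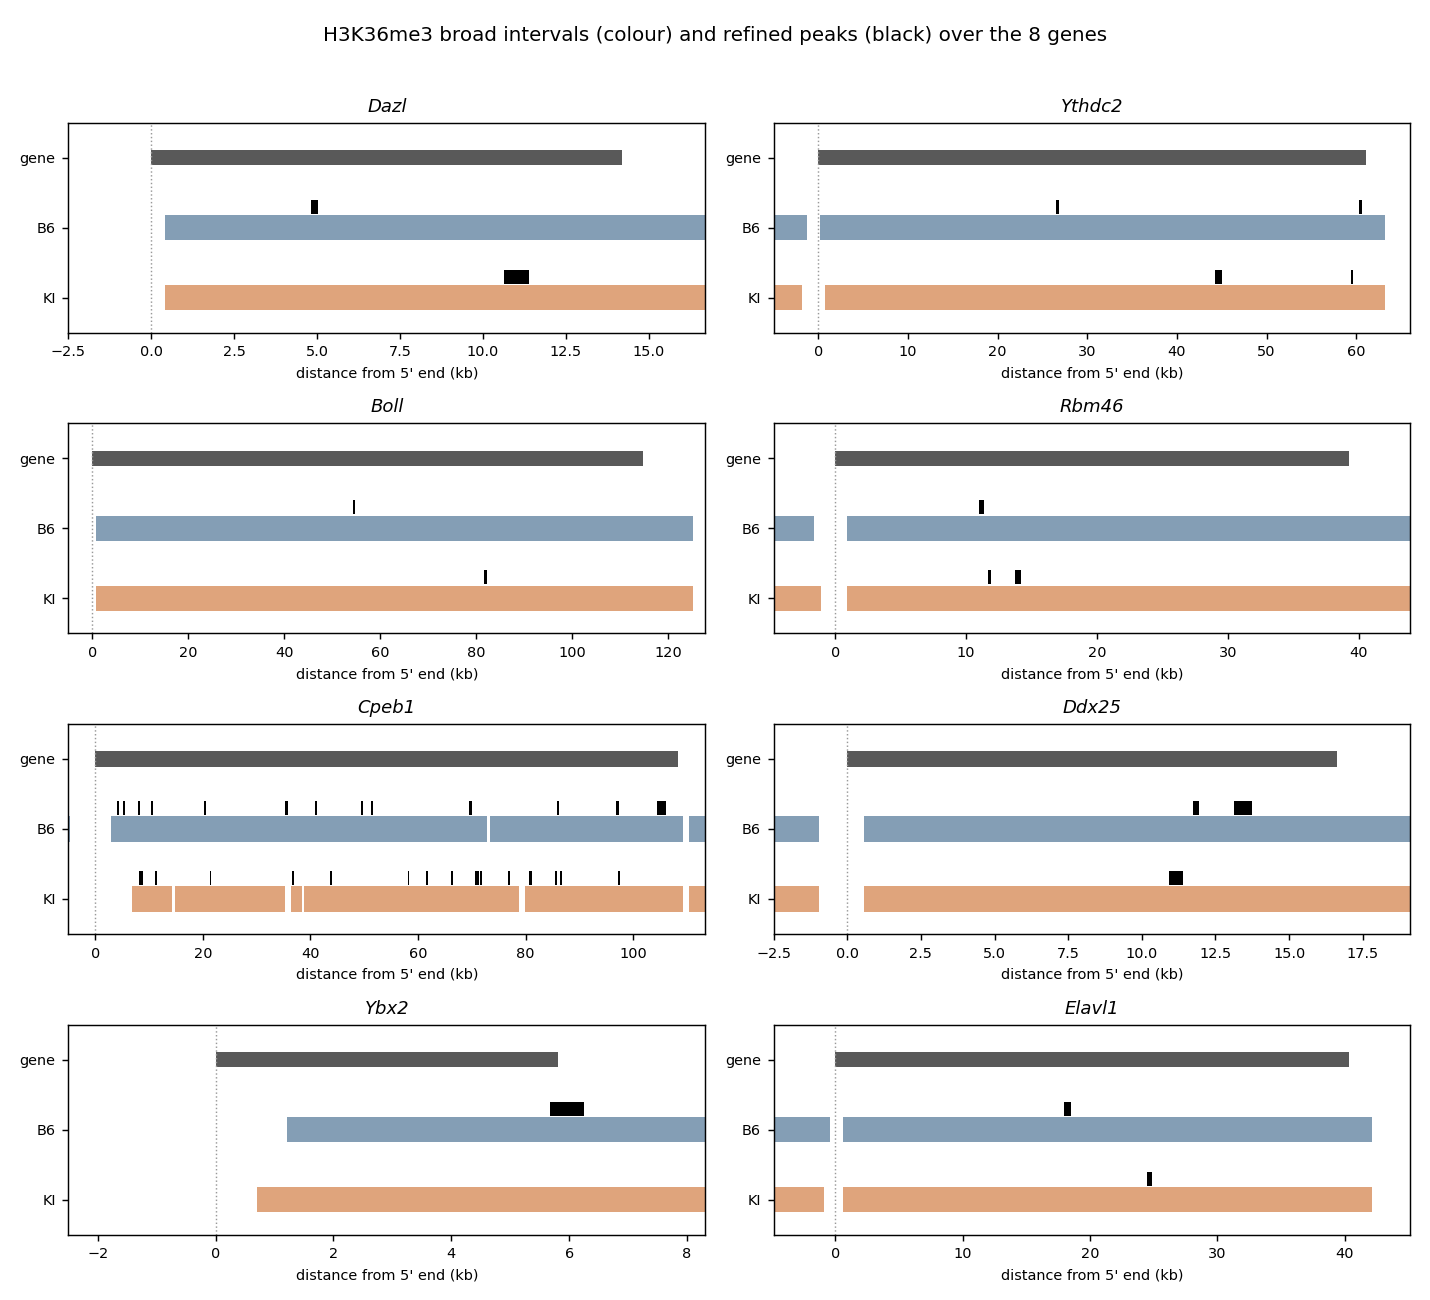
Map of each gene in the direction of transcription, with distance from the 5′ end in kb on the horizontal axis. Grey bars are gene spans, blue (B6) and orange (KI) bars are merged broad intervals, and black marks are refined peaks that overlap the gene. In each panel the first coloured bar that meets the gene begins downstream of the dotted 5′ end, and the cover runs past the end of the gene. Bars of other intervals lie before the 5′ end in Ythdc2, Rbm46, Ddx25 and Elavl1 in both strains, and in Cpeb1 in B6. Cpeb1 carries 13 black marks in B6 and 15 in KI.

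Among the translational regulators of the DAZ family, Dazl (ENSMUSG00000010592.7; chr17:50418719-50432924, reverse strand) was covered over 97.0% of its 14.2 kb in B6 and 97.0% in KI. A single interval from 50416001 to 50432500 held it in both strains, with the same edges. Boll (ENSMUSG00000025977.9; chr1:55305502-55420313, reverse strand) spans 114.8 kb with 8 annotated transcripts and was covered over 99.3% in each strain. Its interval ran from 55295001 to 55419500, which is 124.5 kb, and again had the same edges in both strains. It consisted of 2 adjoining regions in each list, of which the wider was 88.5 kb.

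Cpeb1 (ENSMUSG00000025586.9; chr7:88491912-88600351, reverse strand), which acts in cytoplasmic polyadenylation, is nearly as long as Boll at 108.4 kb but was marked in a different way. Its cover was 96.9% in B6 and 90.9% in KI, and from B6 to KI the covered length fell by 6500 bp, the largest difference in bases among the 8 genes. The B6 cover was made of 11 regions that merged into 2 intervals with a gap of 500 bp. The KI cover was made of 12 regions that merged into 5 intervals, with gaps of 500 or 1000 bp between them. Boll, by comparison, had 2 regions and 1 interval in each strain. Over all genes covered by at least 50% in both strains, the difference of KI minus B6 had a median of 0 percentage points and quartiles of -3.93 and 0, and the difference in Cpeb1 was -5.99 points. It lay between the quartiles (-17.3 and -4.73) of the 687 genes with a mean of 10 or more refined peaks over the strains and a mean cover of at least 50%.

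Ybx2 (ENSMUSG00000018554.6; chr11:69749298-69755107, forward strand), the mRNA storage factor, is the shortest of the 8 genes at 5.81 kb and had the lowest cover, 79.3% in B6 and 87.9% in KI. The difference of 8.61 points is 500 bp, a single step of the grid. The uncovered part, of 1203 bp in B6 and 703 bp in KI, lay at the 5′ end. Measured in bases, it was within the range of the uncovered parts of the longer genes, which went from 182 bp in Ythdc2 to 3351 bp in Cpeb1 in B6.

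Ythdc2 (ENSMUSG00000034653.8; chr18:44988319-45049374, forward strand), the reader of methylated adenosine, was covered over 99.7% of 61.1 kb in B6 and 98.9% in KI, again a difference of 500 bp. Rbm46 (ENSMUSG00000033882.7; chr3:82641155-82680405, reverse strand) was covered over 97.7% of 39.3 kb in each strain. The helicase gene Ddx25 (ENSMUSG00000032101.4; chr9:35349433-35366055, reverse strand) was covered over 96.7% of 16.6 kb in each strain. Elavl1 (ENSMUSG00000040028.9; chr8:4284782-4325100, reverse strand), which is made in most tissues, was covered over 98.5% of 40.3 kb in each strain. In 5 of the 8 genes, Dazl, Boll, Rbm46, Ddx25 and Elavl1, the number of covered bases was the same in both strains. Over the 8919 genes covered by at least 50% in both strains, the difference of KI minus B6 had a median and an upper quartile of 0 points. Equal cover was therefore common among marked genes, and the share of them with equal cover was not computed.

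In order of cover in B6, the genes were Ythdc2, Boll, Elavl1, Rbm46, Dazl, Cpeb1, Ddx25 and Ybx2. The 7 values from Ddx25 to Ythdc2 span 96.7% to 99.7%, and with no replicates the error of the order among them is unknown. The uncovered bases lie before the domain start in each of these genes and also in the gaps of Cpeb1, so a shorter gene has a lower share for the same uncovered length.

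The start of the domain was measured as the edge, on the 5′ side, of the most 5′ merged interval that meets the gene, relative to the annotated 5′ end. It lay downstream of the 5′ end in 8 of 8 genes in both strains, as it did in 88.6% of the genes covered by at least 50% in both strains in B6 and in 89.0% in KI. The count of members is therefore near the background. The distance was 424 bp in Dazl, 813 bp in Boll, 905 bp in Rbm46, 555 bp in Ddx25 and 600 bp in Elavl1, each the same in B6 and KI. The B6 and KI distances were 182 and 682 bp in Ythdc2, and 1203 and 703 bp in Ybx2. Those shifts are 1 grid step each and go in opposite directions. In Cpeb1 it was 2851 bp in B6 and 6851 bp in KI, a shift of 4000 bp. The median over the 8 genes was 706.5 bp in B6 and 692.5 bp in KI, beside 907 bp and 973 bp over the 8919 covered genes. The start edge was the same in both strains in 5 of 8 genes, against 47.2% of the covered genes.

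**Figure D2:**
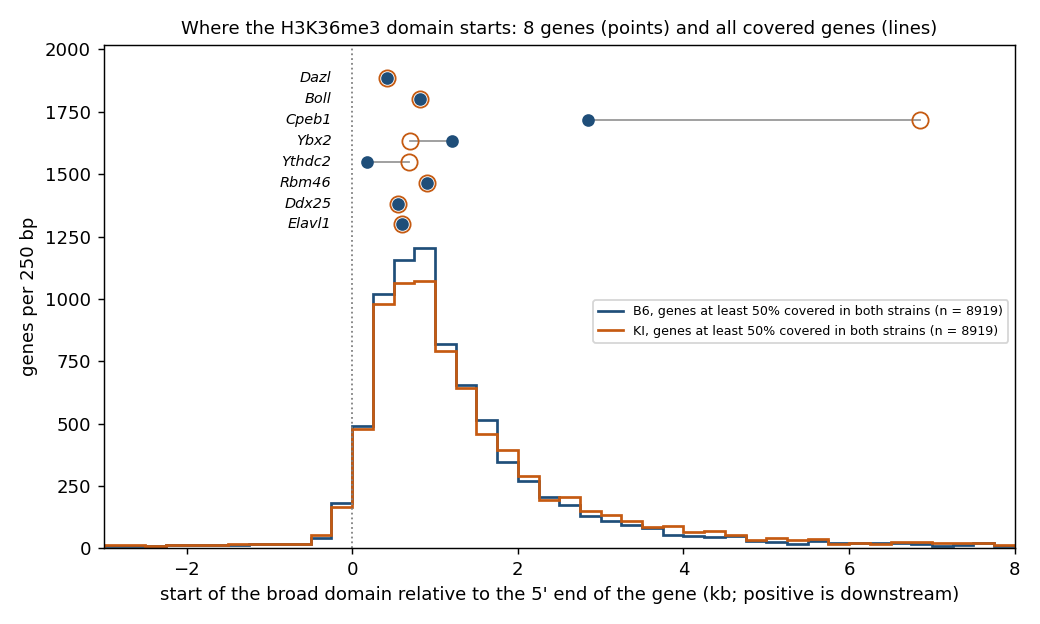
Start of the broad domain relative to the annotated 5′ end, in kb, with positive values downstream. Lines count the 8919 protein-coding genes covered by at least 50% in both strains per 250 bp (blue B6, orange KI), and filled (B6) and open (KI) circles show the 8 genes, stacked by name above the counts; values beyond the axis are not drawn. Cpeb1 lies at 2851 bp in B6 and 6851 bp in KI, and the other circles lie between 182 and 1203 bp.

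The annotated 5′ end is that of the most upstream transcript, and this matters in 2 genes. Relative to the longest protein-coding transcript of Boll, Boll-004, the domain started upstream, at -1915 bp in both strains. Other coding transcripts of Boll start upstream of the edge. The most upstream transcript of Cpeb1 is annotated as a processed transcript. From the 5′ end of its longest coding transcript, Cpeb1-001, the domain started 2144 bp downstream in B6 and 6144 bp in KI. The start codon of that transcript lies 110 bp after its first base, and the edge fell in an intron beyond it. The edge also lay in an intron of the longest coding transcript of Dazl, Ybx2, Rbm46, Ddx25 and Elavl1, and in a coding exon (B6) or an intron (KI) of Ythdc2. In Rbm46 and Elavl1 the start codon of that transcript lies 9847 and 13330 bp after its first base, and there the domain began upstream of the coding sequence.

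The 5′ ends of Rbm46, Ddx25 and Elavl1 each face that of a neighbour on the other strand, and the uncovered stretch spans both starts. Ddx25 and Pus3, a gene for a pseudouridine synthase, have 124 bases between their 5′ ends, in a gap of 1500 bp in B6 and 1500 bp in KI. Elavl1 and Ccl25, a chemokine gene, have 109 bases between them, in a gap of 1000 bp in B6 and 1500 bp in KI. Rbm46 and the noncoding 4930564K09Rik have 221 bases between them, in a gap of 2500 bp in B6 and 2000 bp in KI. On the far side of the gap, Pus3 was covered to 90.4% in both strains and Ccl25 (the longer of 2 entries of that name) to 79.1% (B6) and 70.4% (KI). The cover of 4930564K09Rik was 35.95% (B6) and 41.1% (KI).

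The spacers between these facing starts are given because they are the stretches on which neighbouring domains stop short. They are written 5′ to 3′ on the strand of Ddx25, Elavl1 and Rbm46, with CpG in capitals. They lie on mm9 at chr9:35366056-35366179, chr8:4325101-4325209 and chr3:82680406-82680626, all read on the reverse strand, and hold 20, 14 and 18 CpG.
Ddx25 and Pus3: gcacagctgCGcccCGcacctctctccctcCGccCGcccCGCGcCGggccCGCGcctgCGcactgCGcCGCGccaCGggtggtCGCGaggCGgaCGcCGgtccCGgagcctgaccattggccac
Elavl1 and Ccl25: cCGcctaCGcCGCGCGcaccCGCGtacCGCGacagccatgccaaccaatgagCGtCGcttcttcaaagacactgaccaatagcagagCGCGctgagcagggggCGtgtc
Rbm46 and 4930564K09Rik: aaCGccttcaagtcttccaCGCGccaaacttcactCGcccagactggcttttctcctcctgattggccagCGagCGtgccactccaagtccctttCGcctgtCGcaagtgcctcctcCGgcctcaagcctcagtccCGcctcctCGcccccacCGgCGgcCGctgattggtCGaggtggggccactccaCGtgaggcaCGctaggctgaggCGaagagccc

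The 250 bases before the 5′ ends of Dazl, Boll, Cpeb1 and Ybx2 are shown to set Cpeb1, whose domain started farthest from its 5′ end, beside 3 other genes, again with CpG in capitals and on the strand of the gene. Those of Dazl are chr17:50432925-50433174 (reverse strand), of Boll chr1:55420314-55420563 (reverse strand), of Cpeb1 chr7:88600352-88600601 (reverse strand) and of Ybx2 chr11:69749048-69749297 (forward strand), all on mm9. In Cpeb1 the 5′ end used is that of the processed transcript, not that of its longest coding transcript.
Dazl: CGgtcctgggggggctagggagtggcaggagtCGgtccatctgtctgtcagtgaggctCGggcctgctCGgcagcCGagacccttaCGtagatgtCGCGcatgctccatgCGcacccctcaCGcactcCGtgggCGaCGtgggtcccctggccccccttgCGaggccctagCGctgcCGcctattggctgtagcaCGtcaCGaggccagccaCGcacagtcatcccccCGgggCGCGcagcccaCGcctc
Boll: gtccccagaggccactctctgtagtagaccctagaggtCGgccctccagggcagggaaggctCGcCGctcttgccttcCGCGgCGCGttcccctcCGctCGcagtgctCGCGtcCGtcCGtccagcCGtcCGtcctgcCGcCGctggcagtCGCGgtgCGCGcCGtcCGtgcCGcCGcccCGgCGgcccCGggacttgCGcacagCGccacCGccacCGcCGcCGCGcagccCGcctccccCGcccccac
Cpeb1: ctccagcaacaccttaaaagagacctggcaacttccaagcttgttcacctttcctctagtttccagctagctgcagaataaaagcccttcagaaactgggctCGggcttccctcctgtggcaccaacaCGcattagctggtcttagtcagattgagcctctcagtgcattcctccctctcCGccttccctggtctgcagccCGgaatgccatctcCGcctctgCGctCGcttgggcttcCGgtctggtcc
Ybx2: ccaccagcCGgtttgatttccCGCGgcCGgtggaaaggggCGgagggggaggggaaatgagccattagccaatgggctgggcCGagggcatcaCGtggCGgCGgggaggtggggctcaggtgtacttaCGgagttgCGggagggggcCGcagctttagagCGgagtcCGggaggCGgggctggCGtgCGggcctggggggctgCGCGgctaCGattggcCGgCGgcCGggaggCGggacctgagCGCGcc

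Cpeb1 had the fewest CpG of the 8 genes in this window. It had 8, the median of the 22362 protein-coding genes with a complete window (quartiles 3 and 18). The other 7 genes had more, with 18 in Rbm46, 23 in Dazl, 26 in Ybx2, 31 in Elavl1, 34 in Ddx25, 37 in Boll and 41 in Ythdc2. Between 74.5% and 98.7% of all genes had fewer CpG than these 7. The window of Cpeb1 lies before a transcript annotated as a processed transcript. Its longest coding transcript starts farther downstream, and CpG and motifs before that start were not counted. The low count therefore does not describe the bases before the coding transcript of Cpeb1. Short motifs were counted on both strands of the same windows. CCAAT was found in Dazl, Ybx2, Rbm46, Ddx25 and Elavl1, 5 of 8 genes, and in 35.0% of all windows. GGGCGG, the GC box, was found in Boll, Ybx2, Ythdc2 and Ddx25, 4 of 8, against 39.6%. The E-box CACGTG was found in Ybx2 and Rbm46, against 6.52%, and TTCCCGC, part of an E2F site, in Ybx2 and Ythdc2, against 4.61%. The cAMP response element TGACGTCA was found in Ythdc2, against 1.91%. CAGTTG, the core of a MYB site, and TATAAA were found in 0 of 8, against 10.5% and 12.3%. These are matches of letters and not binding sites.

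At the other end, the domain passed the annotated 3′ end in 8 of 8 genes in both strains, beside 94.5% of the covered genes in B6 and 93.2% in KI. It ran on for 2718 bp in Dazl, 10501 bp in Boll, 911 bp in Cpeb1, 2126 bp in Ythdc2 and 1781 bp in Elavl1, the same in both strains. In Ybx2 it ran on for 4393 bp in B6 and 4893 bp in KI, in Rbm46 for 10154 bp and 4654 bp, and in Ddx25 for 5932 bp and 5432 bp. The end was thus the same in 5 of 8 genes, against 34.4% of the covered genes, and the widest difference, 5500 bp in Rbm46, was the only one of more than 1 grid step. The median was 3556 bp in B6 and 3686 bp in KI, beside 3761 bp and 3295 bp over the covered genes.

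The extensions past the 3′ ends of Boll and Ybx2 met another gene. The interval of Boll reached Mars2, a mitochondrial methionyl-tRNA synthetase gene that is read towards Boll from 8599 bases away and was covered to 66.0% in each strain. The interval of Ybx2 reached Slc2a4, the gene for the glucose transporter GLUT4, which is read towards Ybx2 from 937 bases away. The cover of Slc2a4 was 61.2% (B6) and 70.1% (KI). ChIP-seq reads carry no strand of transcription, so cover in these shared intervals cannot be assigned to a gene of the pair.

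Narrow peaks were few in most of the genes. The B6 list had 22 refined peaks in the 8 genes, 13 of them in Cpeb1, and the KI list had 23, of which 15 lay in Cpeb1. Dazl, Boll and Elavl1 had 1 peak in each strain and Ythdc2 had 2 in each. Rbm46 had 1 in B6 and 2 in KI, Ddx25 had 2 in B6 and 1 in KI, and Ybx2 had 1 in B6 and 0 in KI. At least 1 peak was found in 8 of 8 genes in B6 and 7 of 8 in KI, beside 87.3% and 88.6% of the covered genes. The median was 1 peak in each strain, for the 8 genes and for the covered genes alike. The deposited broad lists hold 1 line for each refined peak, so the number of regions and the number of peaks in a gene are not independent measures.

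**Figure D3:**
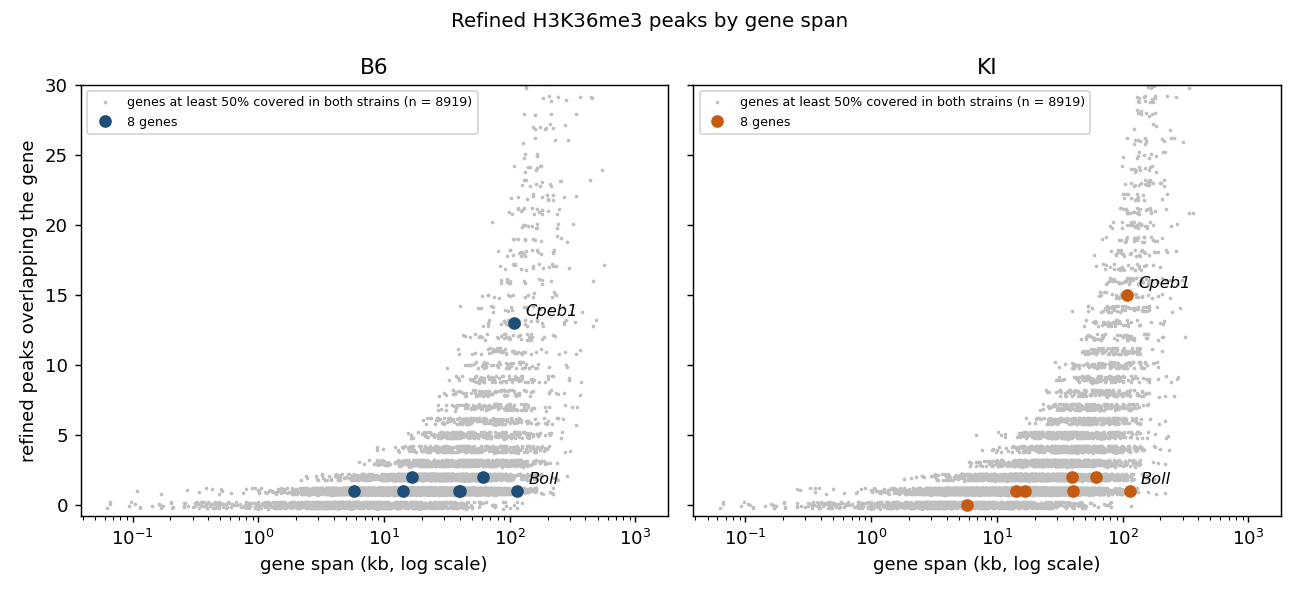
Number of refined peaks that overlap a gene against the gene span in kb on a log axis, in B6 (left) and KI (right). Grey points are the 8919 genes covered by at least 50% in both strains, spread slightly in height for legibility, and coloured points are the 8 genes; 166 genes with more than 30 peaks in either strain lie above the axis in 1 or both panels. Boll and Cpeb1 have like spans but 1 peak against 13 in B6 and 15 in KI.

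The positions of refined peaks were compared between the strains. Of the 22 B6 peaks in the 8 genes, 2 overlapped a KI peak, beside 23.2% of the 23001 B6 peaks in covered genes, and of the 23 KI peaks 1 overlapped a B6 peak, beside 15.8% of 33769. A B6 peak of 597 bp in an intron of Cpeb1 (chr7:88502909-88503505) and a KI peak of 271 bp (chr7:88502849-88503119) shared 211 bp, and this was the 1 pair with both peaks in a member. The B6 peak of Ybx2 (chr11:69754967-69755544), at the 3′ end, shared 307 bp with a KI peak (chr11:69755238-69755773) that starts just past the gene. Elsewhere the nearest peaks of the strains lay up to 27109 bp apart, as in Boll, where the B6 peak was 54.5 kb and the KI peak 82.0 kb from the 5′ end. In Dazl the B6 peak was 4.93 kb and the KI peak 11.01 kb from the 5′ end. In Rbm46 a B6 peak of 398 bp and a KI peak of 259 bp, both at coding exons, lay 327 bp apart, and in Ddx25 peaks of 221 bp in B6 and 474 bp in KI lay 331 bp apart. The closest pair without overlap was in Cpeb1, where a B6 peak of 350 bp and a KI peak of 291 bp lay 9 bp apart. All 23 KI peaks lay wholly in a B6 broad interval, beside 94.0% of the KI peaks in covered genes, and 19 of 22 B6 peaks lay wholly in a KI broad interval, beside 80.5%. The 8 genes were themselves covered over at least 79.3% in each strain, and most of the peaks are those of Cpeb1.

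The 3 exceptions were all in Cpeb1. B6 peaks of 246 bp (chr7:88595011-88595256) and 240 bp (chr7:88595986-88596225) lay at 5.22 and 4.25 kb from the 5′ end, in the 4000 bp that only the B6 domain covered. Another B6 peak of 620 bp (chr7:88564545-88565164) lay across a gap of the KI intervals, with 26.5% of its length covered in KI. Widths of the peaks in the 8 genes ran from 128 to 1710 bp in B6 and from 124 to 785 bp in KI. The widest, at the last part of Cpeb1 (chr7:88494181-88495890), met a coding exon and was wider than 99.3% of all B6 refined peaks.

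The bases of 3 of these peaks are given, as examples of an exonic, an intronic and a shared narrow call. The B6 peak of Dazl (chr17:50427894-50428103) includes a coding exon, whose 92 bases are in capitals. The B6 peak of Boll (chr1:55365722-55365894) and the bases common to both strains in Cpeb1 (chr7:88502909-88503119) are intronic. All are on the reverse strand of mm9. They held 3, 1 and 2 CpG.
Dazl, B6 peak: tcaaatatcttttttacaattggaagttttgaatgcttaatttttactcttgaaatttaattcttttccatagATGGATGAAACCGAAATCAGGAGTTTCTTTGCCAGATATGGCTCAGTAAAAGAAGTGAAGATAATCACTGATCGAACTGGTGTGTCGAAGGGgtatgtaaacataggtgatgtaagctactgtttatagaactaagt
Boll, B6 peak: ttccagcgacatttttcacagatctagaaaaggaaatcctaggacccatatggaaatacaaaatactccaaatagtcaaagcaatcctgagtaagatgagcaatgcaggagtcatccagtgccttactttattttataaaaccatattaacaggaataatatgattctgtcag
Cpeb1, both strains: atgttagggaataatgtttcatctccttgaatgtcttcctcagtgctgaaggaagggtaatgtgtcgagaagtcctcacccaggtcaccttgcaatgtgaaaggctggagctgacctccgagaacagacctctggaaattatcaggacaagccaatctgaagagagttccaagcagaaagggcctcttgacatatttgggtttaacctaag

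The number of peaks in Cpeb1 was high for a marked gene. Of the covered genes, 310 (3.48%) had 13 or more in B6 and 478 (5.36%) had 15 or more in KI. A count of 10 or more in both strains was found in 1 of the 8 genes and in 4.66% of the covered genes. Long genes had more peaks. Among the 733 covered genes of 80 to 140 kb, the median was 4 peaks in B6 and 8 in KI, and 12.7% had 13 or more in B6 and 23.3% had 15 or more in KI. Boll, with 1 peak, was like 158 of these 733 genes in B6 and 55 in KI. Per 100 kb of covered sequence, Cpeb1 had 12.4 peaks in B6 and 15.2 in KI, and Boll had 0.877 in each.

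Genes with the most similar layout were found by the cover in 28 values per gene, which are 10 bins over the span and 2 beyond each end, in each of the 2 strains. Likeness was the mean absolute difference. The closest to Dazl were Lztfl1 (0.439 percentage points), Drg2 and Stx12, and the closest to Ddx25 were Rdbp (0.474), Trap1 and Fastkd3. For Ybx2 they were Trmt61a (0.201), Gar1 and Zfp574, and for Elavl1 they were Sap30bp (0.675), Ddx31 and Tecpr2. Boll had no gene closer than Aak1 (2.77), followed by Cdc42se2 and 2810403A07Rik. Cpeb1 had none closer than Braf (2.61), followed by Gatad1 and Tars2. Ythdc2 was closest to Map3k7 (1.81), Ogdh and Kif4, and Rbm46 to Rnf19b (2.34), Zfp142 and Cc2d1a. Braf, of 122.2 kb, carried 3 narrow peaks in B6 against 10 in KI.

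Close family of the 8 genes was marked more unevenly. Of 21 genes, 18 in B6 and 17 in KI were covered by at least 50%, and 13 were covered by at least 90% in both strains. The CPEB family divided. Cpeb2 was covered to 95.0% in each strain and Cpeb4 to 100%, whereas the cover of Cpeb3 was 56.9% (B6) and 38.0% (KI), with 25 and 24 refined peaks, and was the 1 family gene that changed sides of the 50% limit. In the ELAV family, Elavl1 was covered to 98.5%, Elavl2 to 80.1% in B6 and 71.4% in KI, Elavl3 to 71.7% and 69.0%, and Elavl4 to 8.44% and 4.39%. Elavl2, Elavl3 and Elavl4 are known as the neuronal members. The relatives of Rbm46 also divided. Syncrip was covered to 97.2% and Hnrnpr to 96.2% in each strain, and Dnd1 to 80.4% (B6) and 60.7% (KI), whereas A1cf, a cofactor of mRNA editing, was at 0 in both strains and Rbm47 at 1.60% (B6) and 5.11% (KI). The interval that met Dnd1 began upstream, at -16632 bp (B6) and -16132 bp (KI), so its cover cannot be assigned to Dnd1 alone. Ddx4, the germ cell helicase also called Vasa, was covered over its whole length to within 18 bp of its 5′ end in both strains.

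Of 40 other regulators of RNA in germ cells, 36 in B6 and 35 in KI were covered by at least 50%, and 25 by at least 90% in both strains. Meioc, the partner of YTHDC2, annotated as Gm1564, was covered to 89.4% in each strain. Nanos2, which marks spermatogonial stem cells, was at 0 in both strains. Msi2, of the Musashi family, had the largest difference, with 73.8% of 426.9 kb covered in B6 and 45.0% in KI, and 74 and 65 refined peaks. The cover of Lin28a was 24.2% (B6) and 12.9% (KI). Genes covered by at least 50% in both strains again had domains that mostly began downstream of the 5′ end, 15 of 17 in the family list and 32 of 35 in the list of other regulators, in each strain.

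**Figure D4:**
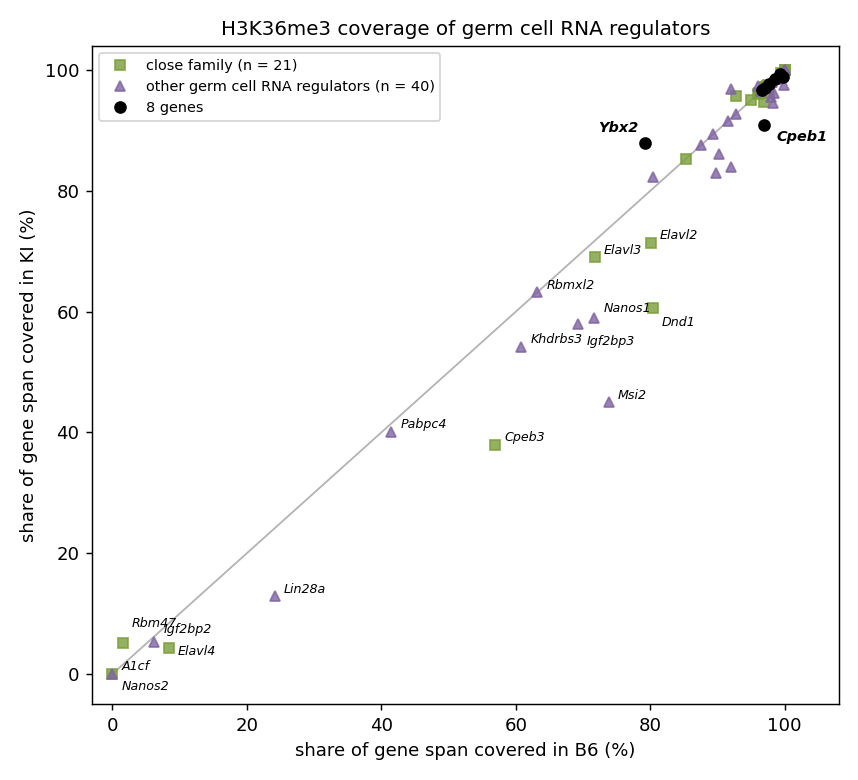
Share of the gene span in merged broad intervals in B6 (horizontal, %) and KI (vertical, %). Black circles are the 8 genes, green squares 21 genes of their close family and purple triangles 40 other germ cell RNA regulators, and the line marks equal shares. The 8 genes lie at 79.3% or more on both axes, while Cpeb3 and Msi2 fall below the line.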

How the data were processed

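Chromatin of germ cells was digested with MNase and immunoprecipitated for H3K36me3 (the antibody is labelled H3K36me6 in the sample labels). The authors aligned reads to mm9 with BWA (version 1.2.3 per the labels), kept those with a unique position, pooled 2 replicates per strain and ran ZINBA on them with the input of that strain as control. The files deposited for each strain are 2 lists of 3 columns, with no score. Positions were read as counted from 1. Each broad region was used once, and regions that overlap or touch were merged. Cover, domain edges and peaks (overlap of at least 1 bp) were computed for each gene span of GENCODE vM1 on the same build, with numpy 2.4.6 in Python 3.11.15, and the code was checked on simulated intervals. No interval passed the end of its chromosome in the genome used, and the last one on 2 chromosomes ended on its last base. No test between strains was possible with 1 pooled list each. The 8 genes and all lists were chosen with earlier results of these data known. Genes other than the 8 were named where the share covered fell under 50% in 1 strain only or differed by 20 points, or as examples of a list, as neighbours or by likeness of layout. The rule allowed 4 examples a list, and the further genes of the close family were named after their values were seen. Rhox5 had no match in the annotation.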

Additional observations from a re-analysis of the deposited data

How the results depend on the processing

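No paired analysis was possible because each strain has 1 pooled list and the labels number no replicates, and no replicate could be left out. The counts of genes covered by at least 50% and of genes whose domain starts downstream stayed within 1.5 times the main count in both strains under all alternatives run on them. With refined peaks of at least 300 bp only, a stricter list, 14 peaks were left in the 8 genes for B6 and 15 for KI. Among B6 peaks of the 8 genes, 1 met a KI peak in them at 1 bp of overlap, 6 when peaks up to 500 bp apart were counted and 20 when KI broad intervals were counted, which follows from the wider target. From the 5′ end of the longest coding transcript, the domain of Boll started upstream, at -1915 bp in B6 and -1915 bp in KI. With gaps of up to 1000 bp closed, the domain of Elavl1 in B6 joined that of Ccl25 and started at -20900 bp. In KI the interval of Cpeb1 with the longest overlap started at 38851 bp. Besides these 3 changes of sign, 131 values for single genes moved by at most 1 grid step of 500 bp and 10 by more. The lists carry no read numbers, so an uncovered stretch cannot be told from one that was too shallow to call. The authors report more aligned ChIP reads for KI than for B6, and the part of this in the differences between the lists was not tested.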

Other observations

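Cpeb1, Cpeb3 and Msi2 had many refined peaks and lower cover in KI than in B6, and the same values were taken over other marked genes, in groups set after the data were seen. Protein-coding genes with a mean cover over the strains of at least 50% were grouped by the mean number of refined peaks over the strains. Cpeb3, with 56.91% in B6 and 37.95% in KI, lies under that mean cover and is not in the groups. The 6923 genes with a mean under 3 had a median difference, KI minus B6, of 0 percentage points (quartiles -2.11 and 0), and 3.15% were lower in KI by 20 points or more while 1.89% were higher. The 1769 genes with a mean of 3 to under 10 had a median of -3.33 points, with 7.80% lower and 1.36% higher. The 687 genes with a mean of 10 or more had a median of -10.2 points (quartiles -17.3 and -4.73), with 18.6% lower and 0.437% higher. The difference of -5.99 points in Cpeb1 is smaller in size than this last median. Zbtb16, a transcription factor gene of undifferentiated spermatogonia, had 69.1% covered in B6 and 37.2% in KI and 38 and 27 refined peaks. Among the other markers of spermatogonia, Kit, Uchl1 and Stra8 were also lower in KI. Sall4 was equal, at 46.75% in each strain, and Gfra1 was higher in KI, at 5.901% against 0 in B6. The number of peaks and the cover come from the same lists, and strain and library cannot be told apart, since each strain has 1 pooled list.

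Acrv1, a gene for an acrosomal protein of spermatids, was covered to 100% in B6, with 4 refined peaks, and to 21.3% in KI, with 0. Prm2, a protamine gene of 0.723 kb, was at 0 in B6 and at 100% in KI, where 1 refined peak met it. The intervals began upstream of the 5′ ends, at -1304 bp (B6) and -5804 bp (KI) for Acrv1 and -1302 bp (KI) for Prm2. Cover of Acrv1 and Prm2 therefore cannot be assigned to those genes alone. Both are short genes with 1 list per strain, and no replicate bears on either difference.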
